A study of Homo sapiens with 6 samples.

Results

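Long intergenic non-coding RNAs (lincRNAs) formed 40 of the 403 genes in the deposited comparison of HCCLM3 cells given ginkgolic acid or vehicle, and they comprise every gene with the biotype lincRNA there. HCCLM3 is an established human hepatocellular carcinoma line, and the labels give its genotype as WT in every library. Cells received 10 µM ginkgolic acid, a phenolic acid of Ginkgo biloba with a long alkyl chain, or the vehicle DMSO, each for 24 h, and 3 libraries of total RNA were sequenced per group. All 403 genes (100%) in the authors' deposited table had an adjusted p under 0.05 and a log2 fold change either above 1 or below -1, so every lincRNA here had already been chosen for its difference between these same libraries. Its direction, fold and p-values are therefore a description of chosen genes, and genes outside the table were not analysed here. Values are normalised read counts, taken here to be reads divided by a size factor of each library, and gene positions are those of the deposited table, on the GRCh38 build. Separate cultures are not stated in the labels, and p-values therefore reflect the spread of these 6 libraries alone, which may be technical. In such bulk samples, fewer cells that express a gene and less RNA per cell cannot be told apart.

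A lincRNA is a transcript with no long open reading frame that arises between protein-coding genes, is usually made by RNA polymerase II and is often spliced and polyadenylated. Some lincRNAs act on chromatin or transcription of a neighbouring gene, some bind proteins or microRNAs, some are the precursors of microRNAs, and for many no role is known. They tend to be less abundant and more restricted to cell types than messenger RNAs, and several are studied in liver cancer.

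Sequence around the start of transcription is shown for the 6 lincRNAs whose RefSeq promoter window (GRCh38.p14, from 250 bases before the start to 50 bases after it) holds the gene start of the deposited table. RefSeq windows were matched for 11 of the 40 lincRNAs. HRAT92 and LINC01583 were higher with ginkgolic acid and the other 4 were lower. Capitals mark matches, on either strand, to GCGTG (the core of the response element of the aryl hydrocarbon receptor), TGANTCA (the AP-1 element), TATAAA (the TATA box) or CACGTG (the E-box). No match overlaps another.
HRAT92 (chr7:520141-520440, plus strand, RefSeq symbol PDGFA-DT): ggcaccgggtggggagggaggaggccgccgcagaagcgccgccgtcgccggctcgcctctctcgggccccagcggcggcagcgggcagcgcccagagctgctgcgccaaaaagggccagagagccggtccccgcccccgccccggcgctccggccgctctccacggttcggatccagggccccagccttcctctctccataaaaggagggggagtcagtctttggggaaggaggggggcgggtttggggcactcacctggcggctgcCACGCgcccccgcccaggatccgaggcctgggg
LINC01583 (chr15:82088344-82088643, plus strand): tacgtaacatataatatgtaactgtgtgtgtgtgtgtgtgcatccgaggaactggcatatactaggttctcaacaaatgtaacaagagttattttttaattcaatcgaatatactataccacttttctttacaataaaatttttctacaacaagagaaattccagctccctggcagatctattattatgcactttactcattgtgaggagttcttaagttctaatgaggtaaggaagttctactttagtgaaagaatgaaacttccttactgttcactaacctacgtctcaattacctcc
LINC00973 (chr3:98980805-98981104, plus strand): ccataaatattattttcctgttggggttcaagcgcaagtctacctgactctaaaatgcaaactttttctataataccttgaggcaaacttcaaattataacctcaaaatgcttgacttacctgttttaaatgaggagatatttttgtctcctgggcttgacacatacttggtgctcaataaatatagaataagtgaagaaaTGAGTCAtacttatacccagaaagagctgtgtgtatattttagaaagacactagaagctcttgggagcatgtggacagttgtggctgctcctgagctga
AC092171.3 (chr7:5428878-5429177, minus strand, RefSeq symbol LINC02983): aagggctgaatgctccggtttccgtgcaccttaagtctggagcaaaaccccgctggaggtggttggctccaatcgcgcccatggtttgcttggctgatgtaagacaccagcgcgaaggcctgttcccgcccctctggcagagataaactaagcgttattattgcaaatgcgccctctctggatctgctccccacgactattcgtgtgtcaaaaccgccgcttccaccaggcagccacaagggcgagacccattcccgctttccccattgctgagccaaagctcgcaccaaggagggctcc
LINC02323 (chr14:102545004-102545303, plus strand): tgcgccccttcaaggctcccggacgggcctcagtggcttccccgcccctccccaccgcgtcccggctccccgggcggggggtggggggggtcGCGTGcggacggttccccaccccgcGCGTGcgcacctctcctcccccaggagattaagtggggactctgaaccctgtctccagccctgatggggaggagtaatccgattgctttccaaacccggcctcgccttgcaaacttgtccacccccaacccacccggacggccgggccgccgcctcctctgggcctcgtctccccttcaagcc
C17orf82 (chr17:61411501-61411800, plus strand, RefSeq symbol LINC02875): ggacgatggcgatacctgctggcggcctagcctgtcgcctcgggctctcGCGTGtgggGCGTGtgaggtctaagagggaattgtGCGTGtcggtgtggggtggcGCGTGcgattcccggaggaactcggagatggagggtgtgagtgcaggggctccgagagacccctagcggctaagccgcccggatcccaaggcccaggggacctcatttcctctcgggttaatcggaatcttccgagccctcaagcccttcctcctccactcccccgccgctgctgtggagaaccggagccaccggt
GCGTG was found in 3 of these 6 windows, among them C17orf82 with 4 matches, and in 36.5% of all 35116 RefSeq windows. TGANTCA was found in the LINC00973 window alone of the 6 and in 7.71% of all windows. TATAAA and CACGTG were found in 0 of the 6 windows, against 11.5% and 7.26% of all. A match is a string of letters and shows no bound factor. The windows of HRAT92, LINC02323 and C17orf82 were rich in G and C (75.0%, 71.0% and 65.7%, with 30, 26 and 26 CpG), and those of LINC01583 and LINC00973 were poor (34.0% and 37.3%, with 4 and 1 CpG), against a median of 58.7% and 14 CpG over all windows. The rich windows belong to 1 higher and 2 lower lincRNAs, and the poor ones to 1 higher and 1 lower. AC092171.3, which was lower, lay near the median, at 57.7% and 17 CpG.

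Among the 40 lincRNAs, MIR3142HG and LINC00513 share their locus with microRNAs. MIR3142HG is the host gene of miR-3142 and miR-146a, the second of which is known to restrain NF-kappa-B signalling. The hairpin of miR-146a lies within an exon of MIR3142HG on the same strand. LINC00513 runs across MIR29A and MIR29B1, which lie on the other strand and outside its exons. Mature sequences from RefSeq (GRCh38.p14) are given with the seed (bases 2 to 8) in capitals.
hsa-miR-146a-5p: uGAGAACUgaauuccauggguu
hsa-miR-3142: aAGGCCUUucugaaccuucaga
hsa-miR-29a-3p: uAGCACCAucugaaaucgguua
hsa-miR-29b-3p: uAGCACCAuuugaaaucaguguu
The 2 miR-29 sequences share the seed AGCACCA, while miR-146a-5p and miR-3142 have different seeds. The reads counted here are those of the long transcripts, and the mature microRNAs were not analysed here.

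Of the 40 lincRNAs, 19 were higher and 21 were lower with ginkgolic acid. In the fit of all 403 genes with limma on log2(normalised read count + 1), 19 were called higher and 21 lower at a Benjamini-Hochberg adjusted p under 0.05, against 62.8% of all genes called higher and 37.2% called lower. That is 47.5% higher among lincRNAs. In the authors' deposited table the 40 lincRNAs had a median log2 fold change of -1.11 and all 403 genes one of 1.12. No selected gene lies between -1 and 1, so such a median mainly shows which direction holds more genes. It was -0.03 for the 26 lincRNAs with a mean of at least 20, of which 13 were higher and 13 lower. Taken by direction, medians were close to those of the table: 1.34 for the higher lincRNAs and -1.40 for the lower ones, against 1.34 and -1.30 over all genes. At a limma adjusted p under 0.01 there were 19 higher and 20 lower lincRNAs, against 62.3% and 36.7% of all genes. That adjustment runs over the 403 selected genes only. By the authors' adjusted p, 25 of the 40 lincRNAs (62.5%) were under 0.01, against 73.0% of all genes. Groups were fully separated, with no library of one within the range of the other, in 19 higher and 20 lower lincRNAs, where 61.5% of all genes were higher and 36.7% lower without overlap. AC103718.1 was the lincRNA with overlap.

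LincRNAs lay towards the low end of abundance in the table. Their median was 25.6 normalised read counts over the 6 libraries, against 39.5 for all genes and 55.9 for protein-coding genes, and the highest was 250 against 4852. A mean of at least 20 was reached by 26 lincRNAs (65.0%), 13 higher and 13 lower, and by 76.4% of all genes. Of the 14 below it, 6 were higher and 8 lower. Just inside that limit were AC091185.1 (21.8) and LINC00239 (22.6), and just outside were AC007823.1 (18.9) and AC006504.1 (17.8). LINC00239 and LINC02547 lay nearest to the authors' limit on the adjusted p (0.04996 and 0.0492 in the authors' deposited table). Folds were larger among the less abundant: in the authors' deposited table the absolute log2 change had a median of 1.71 below a mean of 20 and 1.31 from it upwards. A gene with few reads needs a larger fold to pass the authors' thresholds, so the selection itself favours this pattern.

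**Figure D1:**
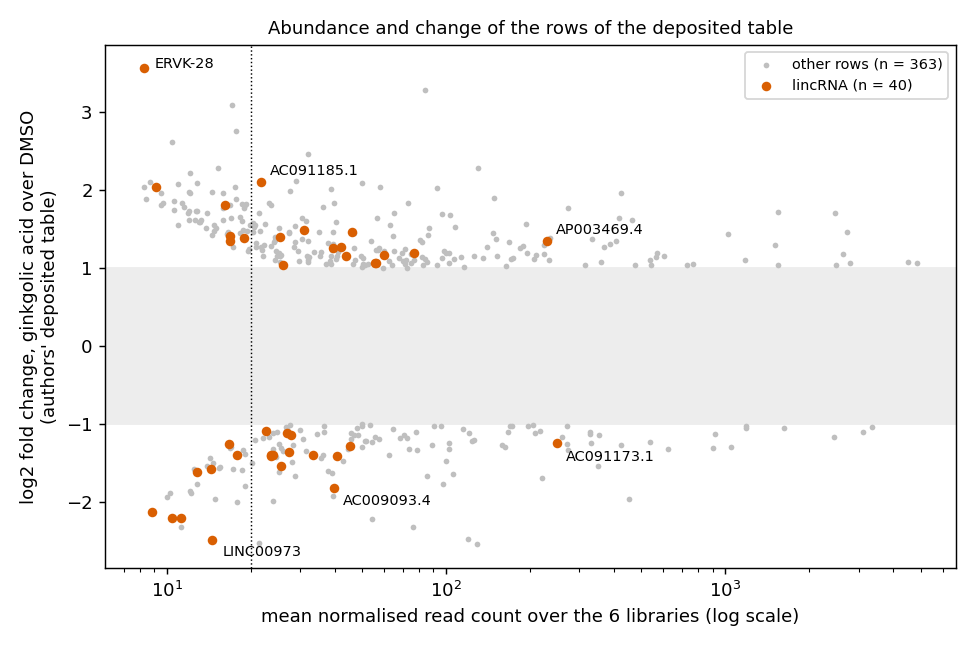
Authors' deposited log2 fold change of ginkgolic acid over DMSO (y axis) against the mean normalised read count over the 6 libraries (x axis, log scale), with 1 point per gene for 40 lincRNAs and the 363 other genes. The dotted line marks a mean of 20, the grey band holds no gene because of the authors' threshold, and lincRNAs reach 250 while other genes reach 4852.

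Of the more abundant lincRNAs, 13 were higher with ginkgolic acid, by 2.07-fold (LINC02547) to 4.28-fold (AC091185.1). AP003469.4 was the most abundant of them. It lies on chromosome 8 (101166805 to 101169629, minus strand), has 1 exon and starts 8249 bases downstream of ZNF706, a zinc finger gene on the same strand. It had 144, 122 and 124 normalised read counts in the DMSO libraries and 351, 343 and 297 in the ginkgolic acid libraries. The lowest treated library was 2.06 times the highest DMSO library. The limma log2 fold change was 1.34 (SE 0.13, adjusted p = 1.28e-06).

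AC091185.1 had the largest fold of this set. This transcript of 2 exons (chromosome 8, 25425521 to 25426580, minus strand) ends 867 bases before GNRH1, the gene for gonadotropin-releasing hormone, on the same strand. Its DMSO libraries had 13.0, 4.77 and 6.99 and its ginkgolic acid libraries 31.8, 39.1 and 35.1 normalised read counts. The groups were far apart, at 8.26 ± 4.27 and 35.3 ± 3.66 (SD, n = 3 each), with a limma log2 fold change of 2.07 (SE 0.35, adjusted p = 0.000158).

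Among these 13, treated libraries differed most among themselves for AC005332.3 and LINC01474. AC005332.3 (chromosome 17, 68131462 to 68131907, plus strand) is a transcript of 1 exon and 446 bases. It had 18.0, 17.2 and 14.0 with DMSO and 23.3, 49.96 and 63.2 with ginkgolic acid. Its neighbour AC005332.5 (68133201 to 68135935, the same strand) had 54.1, 44.8 and 40.9 with DMSO and 84.8, 106 and 128 with ginkgolic acid. On the other strand 981 bases of the exons of AC005332.5 are shared with pseudogenes. For both lincRNAs, replicate 1 was the lowest treated library and still lay above every DMSO library. LINC01474 (chromosome 9, 72871728 to 72874109, minus strand), downstream of the retinal dehydrogenase gene ALDH1A1, had 39.0, 34.3 and 35.9 with DMSO and 47.7, 85.8 and 94.8 with ginkgolic acid. Again replicate 1 was lowest, at 1.22 times the highest DMSO library. AC034213.1 (chromosome 5, 180441559 to 180443238, plus strand) had 26.0, 25.7 and 22.0 with DMSO and 48.8, 77.1 and 76.4 with ginkgolic acid, with a limma log2 fold change of 1.39 (SE 0.23, adjusted p = 0.000144).

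HRAT92 starts 95 bases from PDGFA, the gene of a platelet-derived growth factor chain, and is read in the opposite direction (chromosome 7, 520391 to 525232, plus strand). It had 33.0, 34.3 and 14.0 normalised read counts with DMSO and 49.8, 68.4 and 63.2 with ginkgolic acid. DMSO replicate 3 lay far below the others, and without it the limma log2 fold change of 1.22 (SE 0.31) was 0.81. AP000808.1 (chromosome 11, 68870664 to 68874542, plus strand) had 38.0, 37.2 and 35.9 with DMSO and 105, 72.8 and 72.0 with ginkgolic acid. Its DMSO libraries agreed within 1.05 (SD), the least spread of this set relative to the mean. LINC02081 (chromosome 17, 78605233 to 78632155, minus strand) has 24 annotated transcripts. Its libraries had 43.0, 26.7 and 37.9 with DMSO and 67.8, 73.8 and 83.4 with ginkgolic acid.

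Both lincRNAs of chromosome 20 were higher. AL118508.1 (23187961 to 23190307, plus strand) had 28.03, 21.0 and 25.0 with DMSO and 65.7, 58.6 and 53.5 with ginkgolic acid. AL035071.1 (32856621 to 32858751, plus strand), which ends 172 bases before EFCAB8, had 18.0, 22.9 and 28.9 with DMSO and 56.2, 52.1 and 58.8 with ginkgolic acid. In each, the lowest treated library was at least 1.8 times the highest DMSO library. LINC01583 (chromosome 15, 82088594 to 82097694, plus strand) had 19.02, 13.3 and 9.98 with DMSO and 33.9, 29.3 and 47.4 with ginkgolic acid. LINC02547 (chromosome 11, 12030875 to 12061785, plus strand), the smallest fold of the 13, had 18.0, 22.9 and 9.98 with DMSO and 44.5, 33.7 and 27.2 with ginkgolic acid. Its groups were separated by a factor of only 1.19, and its limma adjusted p was 0.00656.

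**Figure D2:**
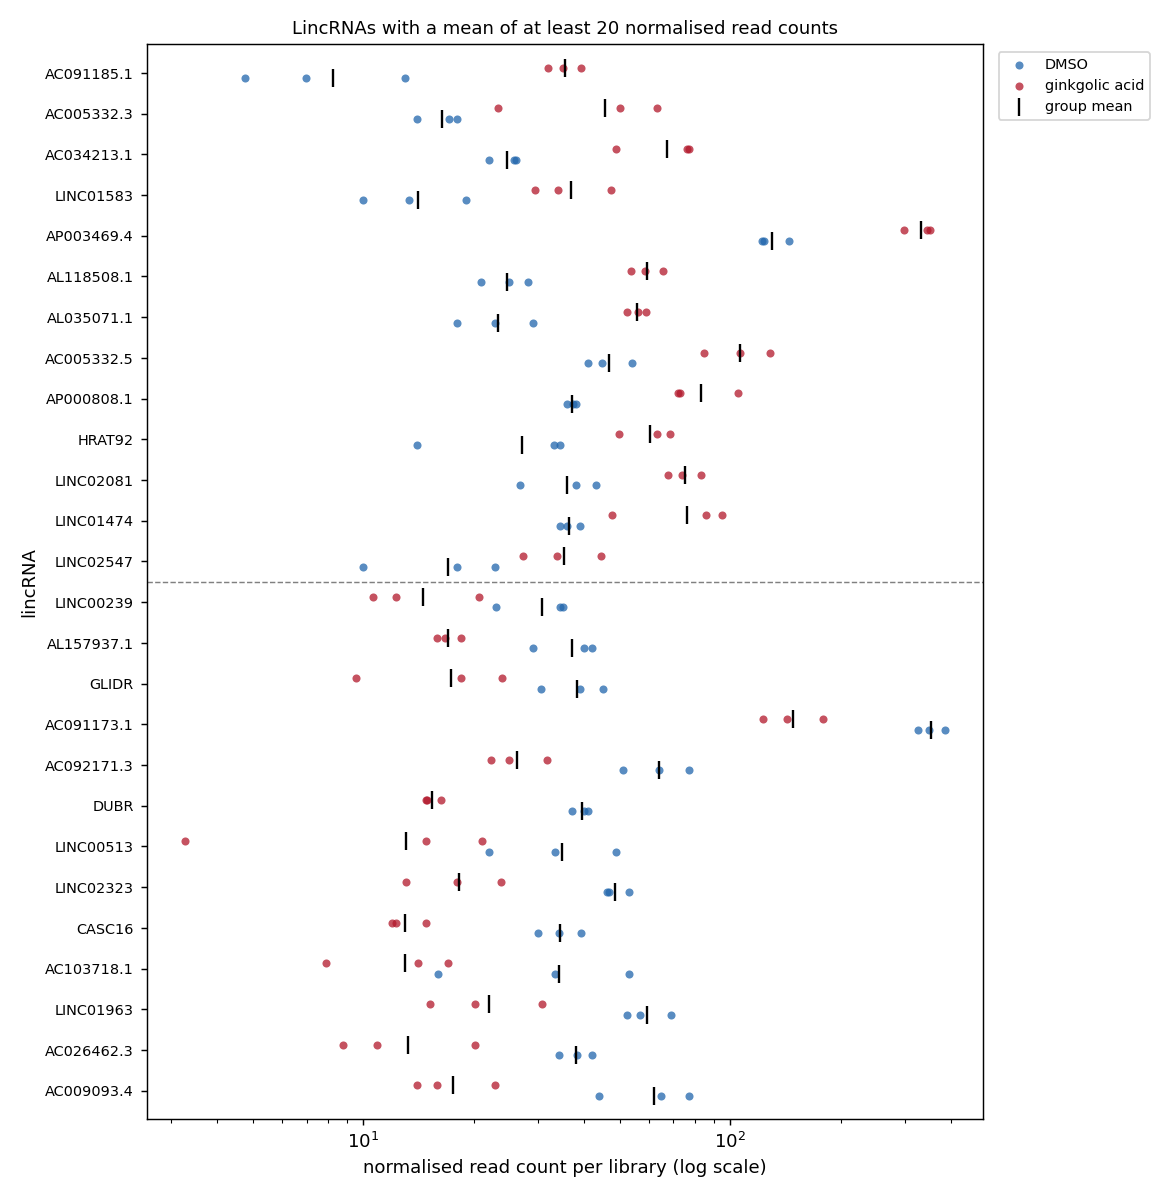
Normalised read count of each library (x axis, log scale) for the 26 lincRNAs with a mean of at least 20, with 3 DMSO points, 3 ginkgolic acid points and a black bar for each group mean. LincRNAs above the dashed line were higher with ginkgolic acid and those below it lower, and AC103718.1 is the one whose groups overlap.

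The other 13 of the more abundant lincRNAs were lower with ginkgolic acid, by 2.12-fold (LINC00239) to 3.52-fold (AC009093.4). AC091173.1, the most abundant lincRNA of the table, lies on chromosome 8 (61759094 to 61765969, minus strand), 44454 bases from ASPH, and overlaps no annotated gene. It had 384, 325 and 347 normalised read counts with DMSO and 143, 122.7 and 179 with ginkgolic acid. Every treated library was below every DMSO library, and the limma log2 fold change was -1.26 (SE 0.15, adjusted p = 6.78e-06).

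AC009093.4 (chromosome 16, 29262273 to 29264479, minus strand) fell the most of this set. Its 2 exons total 561 bases. The DMSO libraries had 77.1, 43.8 and 64.9 and the treated libraries 15.9, 22.8 and 14.0 normalised read counts, and the limma log2 fold change was -1.75 (SE 0.27, adjusted p = 8.01e-05). Its DMSO libraries were spread widely (61.9 ± 16.8), yet the lowest was 1.92 times the highest treated library. The nearest protein-coding gene is NPIPB11, 116875 bases away.

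CASC16 and AC026462.3 overlap on opposite strands of chromosome 16 and were both lower. CASC16 (52552090 to 52652105, minus strand) lies 4288 bases upstream of TOX3 on the same strand, in a region known for inherited breast cancer risk. It had 34.0, 39.1 and 29.9 with DMSO and 14.8, 11.9 and 12.3 with ginkgolic acid. AC026462.3 (52607349 to 52613908, plus strand) lies within the span of CASC16 and had 34.0, 38.1 and 41.9 with DMSO and 20.1, 10.9 and 8.78 with ginkgolic acid. Their exons share 0 bases in the annotation. The deposited counts carry no stated strand setting, so reads of one in an unannotated part of the other could not be separated. The exons of CASC16 also share 80 bases with other genes on the opposite strand.

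DUBR had the closest treated libraries of the 26. This transcript, named for binding upstream of DPPA2 and studied in muscle (chromosome 3, 107240692 to 107326964, plus strand), had 37.0, 41.0 and 39.9 with DMSO and 14.8, 16.3 and 14.9 with ginkgolic acid. Its group values were 39.3 ± 2.05 and 15.3 ± 0.816 (SD, n = 3 each). LINC02323 (chromosome 14, 102545254 to 102555826, plus strand) had 46.0, 46.7 and 52.9 with DMSO and 18.0, 13.0 and 23.7 with ginkgolic acid. LINC01963 (chromosome 2, 216217045 to 216220192, plus strand), downstream of the DNA repair gene XRCC5, had 69.1, 52.4 and 56.9 with DMSO and 20.1, 15.2 and 30.7 with ginkgolic acid. In these 3 lincRNAs the lowest DMSO library was at least 1.71 times the highest treated library.

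AC092171.3 (chromosome 7, 5426277 to 5428927, minus strand), which ends 863 bases before TNRC18, had 64.1, 77.2 and 50.9 with DMSO and 22.3, 25.0 and 31.6 with ginkgolic acid. On the other strand 322 bases of its exons are shared with exons of AC092171.4 and AC092171.5, whose reads could not be told apart from its own. AL157937.1 (chromosome 9, 22203990 to 22214672, minus strand) had 29.03, 41.9 and 39.9 with DMSO and 15.9, 18.5 and 16.7 with ginkgolic acid. GLIDR, named for being low in glioblastoma (chromosome 9, 39748514 to 39810097, minus strand), had 39.0, 30.5 and 44.9 with DMSO and 9.54, 23.9 and 18.4 with ginkgolic acid. The groups of GLIDR were separated by a factor of 1.28. Its exons share 361 bases with BX664615.1 on the other strand.

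LINC00239, LINC00513 and AC103718.1 were the least clearly separated of the lower set. LINC00239 (chromosome 14, 101730437 to 101732522, plus strand), a transcript that has been studied in ferroptosis, had 35.0, 34.3 and 22.96 with DMSO and 10.6, 20.6 and 12.3 with ginkgolic acid. LINC00513 (chromosome 7, 130853720 to 130928649, plus strand) had 22.0, 33.4 and 48.9 with DMSO and 14.8, 3.26 and 21.1 with ginkgolic acid. LINC00513 also overlaps LINC-PINT on the other strand outside its exons, and reads of unspliced LINC-PINT transcripts could not be told apart from its own. The highest treated library of LINC00513 came within a factor of 1.05 of the lowest DMSO library. Its limma adjusted p of 0.00943 became 0.0635 without DMSO replicate 3, and its log2 fold change of -1.58 became -0.87 without ginkgolic acid replicate 2. AC103718.1 (chromosome 8, 129685401 to 129723023, minus strand), with 8 exons, had 53.05, 33.4 and 16.0 with DMSO and 17.0, 14.1 and 7.90 with ginkgolic acid. DMSO replicate 3 of AC103718.1 lay below ginkgolic acid replicate 1, and its limma adjusted p of 0.0106 became 0.0804 without DMSO replicate 1.

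The 14 less abundant lincRNAs had means between 8.28 and 18.9 normalised read counts, and in each of them the groups did not overlap. ERVK-28, an endogenous retrovirus of the HERV-K group (chromosome 19, 27638483 to 27646483, minus strand), had the largest fold and the lowest mean. It was listed at 0 in DMSO replicates 1 and 3 and at 3.81 in DMSO replicate 2, and had 14.8, 15.2 and 15.8 with ginkgolic acid. The treated libraries were close together, while the DMSO level rests on a single library. Its limma log2 fold change of 3.27 (SE 0.67, adjusted p = 0.000609) was 4.02 without DMSO replicate 2 and 2.89 without DMSO replicate 1. Counting may divide reads of a repeated element among its copies. ERVK9-11, the other endogenous retrovirus among the lincRNAs (chromosome 19, 38935297 to 38938632, minus strand), moved the other way, with 29.03, 21.0 and 21.0 with DMSO and 8.48, 7.60 and 13.2 with ginkgolic acid. Both overlap another gene on the same strand outside its exons, AC112702.1 for ERVK-28 and the protein-coding gene AC011455.2 for ERVK9-11. Reads of unspliced transcripts of those genes could not be told apart from their own.

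The next largest rises of the less abundant set were those of AC087222.1, AC131009.2 and LINC00957. AC087222.1 (chromosome 17, 82918282 to 82918785, plus strand) had 1.001, 4.77 and 4.99 with DMSO and 10.6, 14.1 and 19.3 with ginkgolic acid. It lies within TBCD, a tubulin folding cofactor, on the same strand, so reads of unspliced TBCD transcripts could not be told apart from its own. AC131009.2 (chromosome 12, 131857420 to 131864538, plus strand) had 6.01, 9.53 and 5.99 with DMSO and 30.7, 23.9 and 21.1 with ginkgolic acid. LINC00957 (chromosome 7, 44039171 to 44042306, plus strand) had 11.0, 9.53 and 6.99 with DMSO and 22.3, 28.2 and 22.8 with ginkgolic acid. Its exons share 642 bases with a pseudogene on the other strand. AC007823.1 (chromosome 3, 179340322 to 179341887, plus strand), which starts 1739 bases downstream of ZNF639, had 8.01, 9.53 and 14.0 with DMSO and 31.8, 22.8 and 27.2 with ginkgolic acid.

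LINC00973 fell the most of all 40 lincRNAs. This transcript of 2 exons (chromosome 3, 98981058 to 98983096, plus strand) had 24.0, 26.7 and 22.96 with DMSO and 6.36, 4.34 and 2.63 with ginkgolic acid, which is 5.52-fold lower. The limma log2 fold change was -2.29 (SE 0.38, adjusted p = 0.000143), and it stayed between -2.53 and -2.02 when any 1 library was left out. LINC00973 overlaps AC091212.1 on the same strand outside its exons, so reads of unspliced AC091212.1 transcripts could not be told apart from its own. AC147067.2 (chromosome 4, 1550284 to 1550572, plus strand), the shortest lincRNA at 289 bases, had 19.02, 14.3 and 22.0 with DMSO and 4.24, 4.34 and 3.51 with ginkgolic acid. ERICD, named as an inhibitor of cell death that E2F1 regulates (chromosome 8, 140636281 to 140638283, plus strand), had 16.0, 13.3 and 22.0 with DMSO and 4.24, 4.34 and 2.63 with ginkgolic acid. It starts 662 bases from AGO2, which encodes an Argonaute protein of RNA silencing and is read in the opposite direction. AL359313.1 (chromosome 6, 142526455 to 142637889, minus strand) had 16.0, 14.3 and 13.0 with DMSO and 3.18, 2.17 and 4.39 with ginkgolic acid. These 4 lincRNAs each fell at least 4.44-fold, and in each the lowest DMSO library was at least 2.96 times the highest treated one.

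The rest of the less abundant set, and ERVK9-11, are given for the sequences, positions or names they carry, outside the rule for named genes. MIR3142HG, the miR-146a host (chromosome 5, 160438594 to 160487426, plus strand), had 10.0, 11.4 and 6.99 with DMSO and 25.4, 25.0 and 21.9 with ginkgolic acid. Its treated libraries were all at least 1.92 times the highest DMSO library, with a limma adjusted p of 0.0017. C17orf82 (chromosome 17, 61411751 to 61413280, plus strand), whose window holds 4 GCGTG matches, lies 2285 bases downstream of TBX2, a T-box transcription factor gene. It had 17.0, 20.02 and 21.0 with DMSO and 6.36, 5.43 and 7.02 with ginkgolic acid. AC006504.1 (chromosome 19, 27757184 to 27760849, minus strand) lies in the span of LINC00662 on the same strand and had 27.0, 26.7 and 24.0 with DMSO and 5.30, 9.77 and 14.0 with ginkgolic acid. Z83851.1 (chromosome 22, 42276355 to 42277052, plus strand) lies within TCF20 on the other strand and had 21.0, 21.0 and 22.96 with DMSO and 7.42, 4.34 and 9.65 with ginkgolic acid. Both were lower, by 2.67-fold and 3.03-fold. With no strand setting stated, reads of unspliced LINC00662 and TCF20 transcripts could not be told apart from those of AC006504.1 and Z83851.1.

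**Figure D3:**
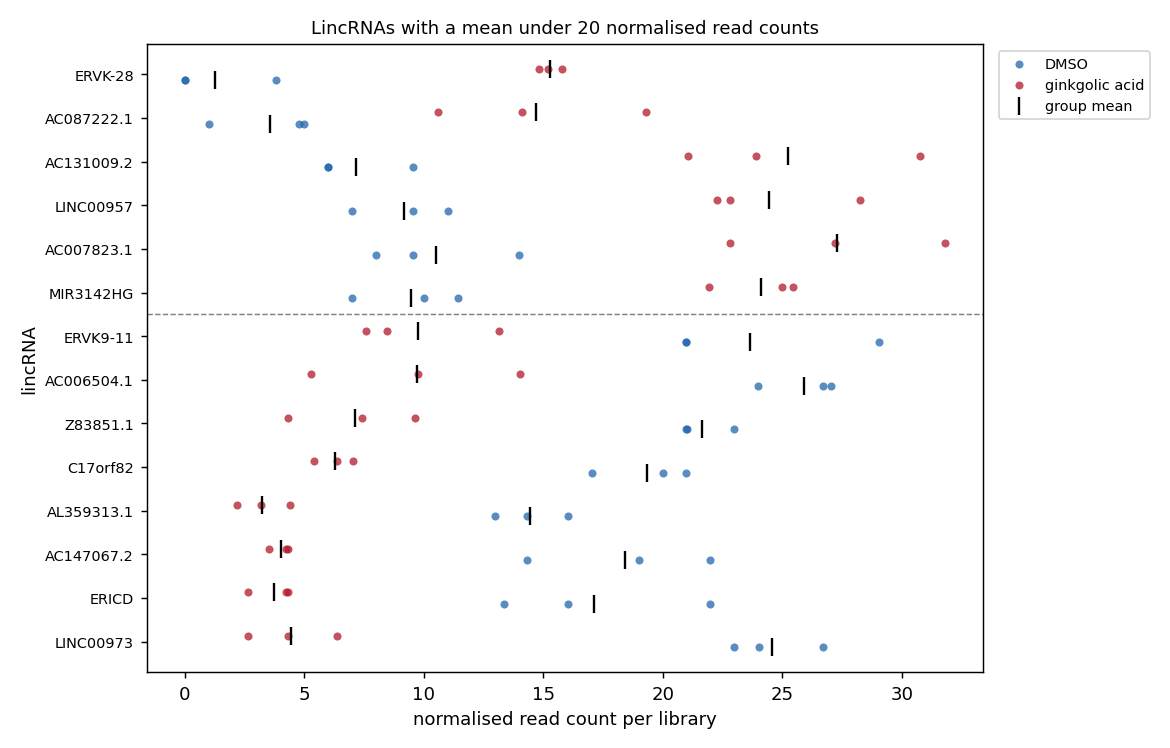
Normalised read count of each library (x axis) for the 14 lincRNAs with a mean under 20, with 3 DMSO points, 3 ginkgolic acid points and a black bar for each group mean. LincRNAs above the dashed line were higher with ginkgolic acid and those below it lower, and ERVK-28 has 2 DMSO libraries at 0.

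The 40 lincRNAs were spread over 17 chromosomes. Chromosomes 8 and 17 held 5 each, with 2 higher and 3 lower on chromosome 8 and 4 higher and 1 lower on chromosome 17. The 3 on chromosome 16 and the 2 on chromosome 14 were lower, while chromosomes 5, 11 and 20 held 2 each, all higher. Chromosome 1 held 49 genes of the table and 0 lincRNAs. Of the 12 lincRNAs that lie within 10000 bases of a protein-coding gene without overlapping it, 8 were higher (66.7%) and 4 lower. Of the 25 farther away, 10 were higher (40.0%) and 15 lower, where 62.8% of all genes in the table were higher. No test was made of that difference.

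Within 100000 bases of a lincRNA, 5 pairs of genes of the table were found, holding 7 of the 40 lincRNAs, and both genes of each pair moved in the same direction. Among all 403 genes, 26 of 32 such pairs did. NPIPB11, 116875 bases from AC009093.4 and so beyond this limit, moved the opposite way to that lincRNA. The gap within the AC005332.3 and AC005332.5 pair was 1294 bases, and that between AC091185.1 and GNRH1 was 867 bases. GNRH1 (chromosome 8, 25419260 to 25424654, minus strand) had 34.0, 31.5 and 51.9 with DMSO and 68.9, 105 and 99.2 with ginkgolic acid, which is 2.33-fold higher against 4.28-fold for AC091185.1. GFPT2, which encodes an enzyme of the first step of hexosamine synthesis (chromosome 5, 180300690 to 180353387, minus strand), lies 88172 bases from AC034213.1. It had 151, 106 and 132 with DMSO and 295, 320.4 and 338 with ginkgolic acid, which is 2.45-fold higher against 2.74-fold. AC131009.4, a transcript of unsettled type (chromosome 12, 131896500 to 131898239, plus strand), lies 31962 bases from AC131009.2. It had 15.01, 7.63 and 11.0 with DMSO and 13.8, 54.3 and 64.1 with ginkgolic acid, so that replicate 1 lay among the DMSO libraries. In AC131009.2 replicate 1 was the highest treated library, so the members of this pair did not share the order of their treated libraries.

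**Figure D4:**
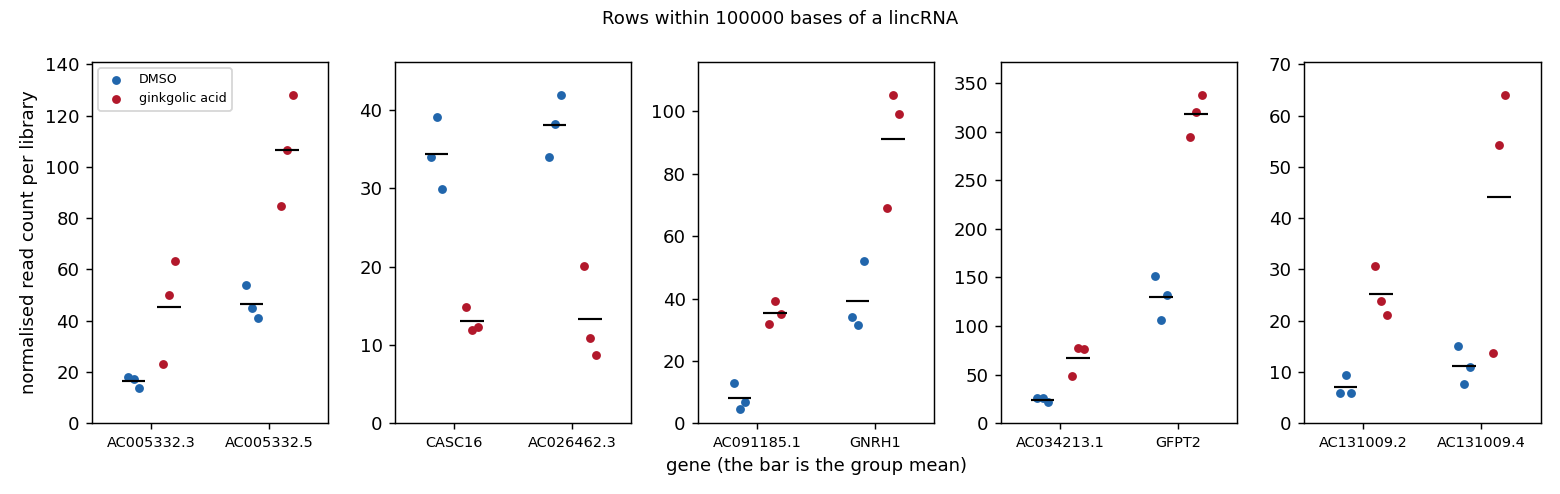
Normalised read count of each library (y axis, starting at 0) for the 5 pairs of genes that lie within 100000 bases of each other and include a lincRNA, with 3 points per group and a black bar for the group mean. Both genes of the CASC16 pair are lower with ginkgolic acid and both genes of the other pairs have a higher mean, with overlap of the groups in AC131009.4.

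By annotation 13 lincRNAs had 1 exon (6 higher, 7 lower) and 27 had more than 1 in at least 1 transcript (13 higher, 14 lower). No annotated gene overlaps 22 of them, of which 13 were higher and 9 lower. Of the 12 that a gene overlaps on the other strand, 3 were higher and 9 lower. Of the 7 that a gene overlaps on the same strand, 3 were higher and 4 lower. With no strand setting stated, reads of the overlapping genes could not be told apart from those of these lincRNAs. CASC16 is in both sets, and CASC16 and AC026462.3 overlap each other. Higher genes made up 47.5% of the 40 lincRNAs and 62.8% of all genes. No test was made of these differences. Divided by exonic length, the order of levels changed. With DMSO the highest level per kilobase was that of AC091173.1, at 128 ± 10.9 normalised read counts per kilobase (SD, n = 3). AC009093.4 was next, at 110.4 ± 30.0, followed by AL157937.1 at 83.4 ± 15.7. With ginkgolic acid the highest were LINC01474 at 119 ± 39.1, AP003469.4 at 117 ± 10.4 and AC005332.3 at 102 ± 45.5. Neighbours in each of these orders lay within their spread of each other.

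Of the 7635 genes with the biotype lincRNA in GENCODE release 29, 40 were in the table. Few or no names of a short list would be there in any case. Counting names found in GENCODE release 29, 0 of 19 widely studied lincRNAs, 0 of 18 studied in liver cancer and 0 of 6 studied after DNA damage were in the table. Of 8 studied in ferroptosis 1 was, LINC00239. Of 8 transcripts of the region around MYC 1 was, CASC19, whose biotype is processed transcript. Selection required both a large fold and a low adjusted p, so these counts do not show that the others were unchanged. Of 10 hepatocyte markers ALB was in the table, and it was lower. Of 6 fibroblast, 5 leukocyte and 4 endothelial markers 0 were, so the labelled cell type could not be checked further here.

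Leaving out each library in turn kept the direction of all 40 lincRNAs. The limma call at an adjusted p under 0.05 was lost in 2 of them, LINC00513 and AC103718.1, each without 1 DMSO library. How many of all genes lost their call in this way was not counted. LINC00513 and ERVK-28 were the lincRNAs whose fold moved by more than 1.5 times, by up to 1.64 and 1.69 times. The narrowest range was that of DUBR, from -1.34 to -1.27. Spread between treated libraries was somewhat wider for the more abundant lincRNAs than for the table: the median coefficient of variation was 23.3% with ginkgolic acid and 16.6% with DMSO, against 17.6% and 17.0% over all genes. For the less abundant lincRNAs it was 22.7% with ginkgolic acid and 21.6% with DMSO, wider than the table in both groups.

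**Figure D5:**
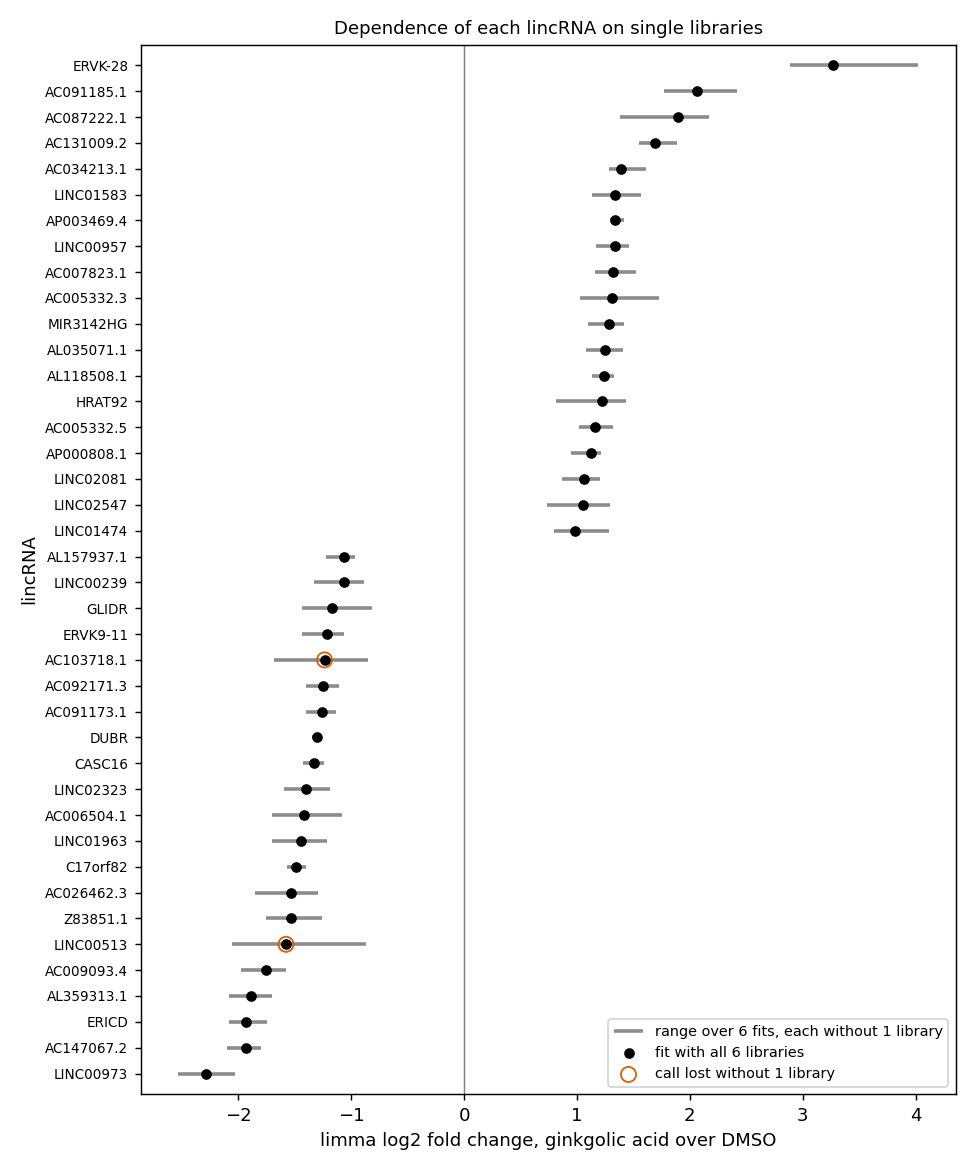
Limma log2 fold change of ginkgolic acid over DMSO (x axis) for each of the 40 lincRNAs, with a point for the fit of all 6 libraries and a grey line for the range over 6 fits that each leave out 1 library. No line crosses 0, the circled points are LINC00513 and AC103718.1, and ERVK-28 has a range from 2.89 to 4.02.

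The calls and the sizes of the folds depend on how the libraries are scaled, while the signs of the 40 lincRNAs did not change under the one other scaling tried. With each library scaled anew by its median ratio over the 403 selected genes, log2 fold changes moved by a median of -0.88, 3 lincRNAs were called higher and 21 lower, and over all genes 15.1% were called higher and 37.2% lower. That scaling sets the median change of the selected genes near 0 by construction. ERVK-28, AC091185.1 and AP003469.4 were the 3 called higher under it.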

How the data were processed

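RNA-seq was made from total RNA of HCCLM3 cells, 3 libraries per group. The submitters' processing notes name HISAT2 2.0.5, DESeq2 1.20.0, featureCounts 1.5.0-p3, CASAVA 1.8 and fastp, with the build hg38. Their settings, strand included, were not given in the sources used here. Per the file headers, the deposited comparison table holds a signal for each library and group mean, the log2 fold change, p-value and adjusted p-value of the comparison, and gene length. The signal has no stated unit. In each library all values were whole multiples of a step between 0.878 and 1.086 (tolerance 1e-04 steps), as reads divided by a size factor would be, and are called normalised read counts. The deposited table headed FPKM holds the same values (largest difference 4.64e-08). The steps sum to 67006 to 98627 per library over the table, and total depth is unknown. Positions, strands and biotypes of all 403 genes equalled GENCODE release 29 (GRCh38), and lengths equalled its merged exons.

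Values were taken as log2(value + 1), kept at a mean of at least 1 (0 genes removed), and fitted with limma 3.58.1 (intensity trend, R 4.3.3), with Benjamini-Hochberg adjustment over 403 genes. With 3 against 3 libraries an exact two-sided permutation test cannot go below p = 0.1, so none was run. Fold changes on this scale understate low genes. The fit was tested on simulated data. Every lincRNA with a mean of at least 20 was named. Below it, the rule named the 4 largest rises and falls, any with overlapping groups (0 were found) and the one nearest to the limit. The other 5 below it were added after their values were seen. Members and lists were chosen with earlier results of these data known. Python 3.11.15, pandas 2.3.3, numpy 2.4.6 and matplotlib 3.10.9 were also used.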

Additional observations from a re-analysis of the deposited data

How the results depend on the processing

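Rescaling to the median ratio gave 3 lincRNAs called higher, 2 of them with a mean of at least 20, by its construction on changed genes. Counted apart from calls, 7 lincRNAs were then higher without overlap of the groups, which was not counted over all genes. Of the 40 lincRNAs, 16 lost their call under that scaling. Over all genes the share called higher went from 62.8% to 15.1%, while 37.2% were called lower under both scalings. Moving the abundance limit changed counts because fewer or more lincRNAs enter: at a mean of at least 10 there were 20 lower, and at 50 there were 5 higher and 1 lower. With each library left out in turn, 19 lincRNAs were called higher each time and 20 to 21 lower, and 20 to 21 were lower without overlap. The matching counts over all genes were not made. Pseudocounts of 0.5 and 0.1, a variance prior without a trend and no filter gave 19 and 21, and an adjusted p under 0.01 gave 19 and 20. Every lincRNA had been selected on these libraries, which favours stable counts. A replicate block in the fit gave 19 higher and 21 lower, and 13 and 13 of those with a mean of at least 20. Same-numbered libraries deviated from their group means with correlations of -0.0338, 0.0047 and -0.0654 across genes, and 0 of the 3 treated libraries correlated best with its own number. The labels do not state whether same-numbered libraries were handled together. These genes cannot decide it, because their selection favoured small spread within groups. The planned count models were not run, since too few values are low to establish that a step is 1 read. The fold of ERVK-28 is poorly determined, as this lincRNA is listed at 0 in 2 DMSO libraries and at 3.81 in the other.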

Other observations

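Among the 19 higher lincRNAs, ginkgolic acid replicate 1 was the lowest treated library in 10 (52.6%), and over all 253 higher genes it was the lowest in 54.2%. DMSO replicate 3 was the lowest DMSO library in 10 of the 19 lincRNAs (52.6%) and in 37.2% of the 253 genes. Among the 21 lower lincRNAs, ginkgolic acid replicate 3 was the highest treated library in 10 (47.6%), and in 26.0% of the 150 lower genes. These shares were picked out after their values were seen and were not tested.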
